A study of Mus musculus with 6 samples.

Results

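The protein-coding Hox genes of the mouse were examined in epiblast stem cells before and during early neural plate development. The genes were taken by probes whose RefSeq mRNA accession maps to a symbol of the Hoxa, Hoxb, Hoxc or Hoxd series, and 41 of the 55646 probes and 38 of the 20274 named genes on the array are described. Of these, 10 are Hoxa genes on chromosome 6, 10 are Hoxb genes on chromosome 11, 9 are Hoxc genes on chromosome 15 and 9 are Hoxd genes on chromosome 2. Hoxa9, Hoxa13 and Hoxb3 each had 2 probes, and the others had 1.

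Hox genes encode homeodomain transcription factors that set position along the head to tail axis, and their order within a cluster follows the order of their expression domains, from the hindbrain genes at one end to the tail, limb and genital genes at the other. In the embryo the clusters are opened by Wnt, FGF and retinoic acid signals in posterior tissue, with Cdx factors among the activators, and are kept silent by Polycomb complexes in pluripotent cells and in the anterior neural plate, from which forebrain and midbrain form. Hox proteins bind DNA together with partner homeodomain proteins of the TALE class, the Pbx, Meis and Pknox families.

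Epiblast stem cells (EpiSCs) are pluripotent cells taken from the post-implantation epiblast, here of mouse strain 129/Sv. The EpiSC group was kept in the epiblastic maintenance condition, and the NPC1 and NPC2 groups were held for 1 day and 2 days in a neural plate developmental condition. Each group had 2 cultures, A and B, and all were started from 1 seed culture. The p-values below therefore rest on the spread between duplicates, which may be technical alone. RNA of every culture went to a separate 1-colour Cy3 array, and the 6 arrays lay on 1 slide.

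The measure is the processed signal, the background-subtracted brightness of a probe in arbitrary units on a linear scale. A spot is called detected here where the scanning software marked it as well above background, which it did for between 58.2% and 61.1% of the 59305 spots per array that are no controls. The lowest signal so marked was 8.12 to 9.57, depending on the array. Among 308 negative control spots, which match no mouse transcript, 1 to 4 per array were also so marked. Their 99th percentile was 4.56 to 25.3 and their highest signal 18.5 to 718, both highest on NPC1 B. The labelled states were visible in their markers: Pou5f1, which encodes the pluripotency factor Oct4, was lower in NPC2 than in EpiSC (log2 change -2.66 ± 0.073, standard error, adjusted p = 1.59e-05 by limma), and Sox1, a transcription factor gene of the neural plate, was higher (5.72 ± 0.059, adjusted p = 5.86e-06). In NPC2, 10 of 11 neural plate markers were higher and 1, the intermediate filament gene Nes, was lower. Pax6, among the higher ones, was detected in NPC2 alone and was tested through that group. Of 9 epiblast markers 7 were lower and 2, Nanog and Otx2, were higher. Nanog, also a pluripotency gene, read 125.1 and 134.4 in EpiSC and 237.6 and 239.5 in NPC2. Over all genes tested, 28.3% were called higher and 40.7% lower in NPC2 than in EpiSC, at an adjusted p under 0.05.

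The Hoxd cluster holds both a gene first detected on day 2, Hoxd1 at its hindbrain end, and a gene detected in EpiSC and not on day 2, Hoxd13 at its opposite end, so the 250 bases before the start of each are shown (RefSeq, GRCm38.p6, plus strand, written 5′ to 3′), with CG dinucleotides, the sites of DNA methylation, in capitals. The windows are chr2:74762730-74762979 for Hoxd1 and chr2:74667975-74668224 for Hoxd13.
Hoxd1: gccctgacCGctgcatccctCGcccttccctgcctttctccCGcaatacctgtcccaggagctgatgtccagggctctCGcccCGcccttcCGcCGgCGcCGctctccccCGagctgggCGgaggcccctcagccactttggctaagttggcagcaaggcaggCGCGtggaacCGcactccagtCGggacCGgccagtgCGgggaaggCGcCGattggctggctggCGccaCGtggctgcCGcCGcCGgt
Hoxd13: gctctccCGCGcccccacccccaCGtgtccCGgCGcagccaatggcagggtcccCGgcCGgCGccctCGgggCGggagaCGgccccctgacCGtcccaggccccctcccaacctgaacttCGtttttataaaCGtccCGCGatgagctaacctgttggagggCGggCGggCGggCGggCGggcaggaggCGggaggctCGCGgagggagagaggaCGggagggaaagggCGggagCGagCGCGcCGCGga
The Hoxd1 window held 24 CG dinucleotides and the Hoxd13 window 31, against a median of 12.5 in the 24 promoter windows of 22 Hox genes in the reference table and of 10 in 21239 windows of other protein-coding genes. Of the 24 Hox windows 62.5% held 10 or more CG dinucleotides, against 50.1% of the other windows. Of 4 motifs searched on both strands, TATAAA was found in 16.7% of the Hox windows and 11.6% of the others. It matched in the Hoxd13 window once on each strand at overlapping positions, and not in the Hoxd1 window. AGGTCA, a half-site of nuclear receptors, was in 25% of the Hox windows and 12.8% of the others, TTTATG, a Cdx motif that differs in its last letter from TTTATA, the reverse complement of TATAAA, in 20.8% and 8.94%, and TGATNNAT, a motif bound by Hox and Pbx proteins together, in 16.7% and 6.67%. None of these 3 was in the Hoxd1 or the Hoxd13 window. The windows of 6 detected Hox genes held 3 to 31 CG dinucleotides and the 18 of 16 undetected Hox genes 2 to 35, with medians of 24 and 12 and overlapping ranges, a difference that was not tested. Hoxb3 is not in the table.

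Most Hox genes gave no detected signal in any of the 3 groups. On the 6 arrays 5 to 7 of the 41 Hox probes were well above background, 12.2% to 17.1%, against 71% to 72.8% of 25872 other protein-coding probes. The counts were 6 and 5 in EpiSC, 6 and 7 in NPC1, and 7 and 5 in NPC2 (cultures A and B), so they did not separate the groups. All detected Hox probes lay above the 99th percentile of the negative controls on 4 arrays, but on EpiSC B 3 of 5 did (17.4) and on NPC1 B 2 of 7 (25.3), the latter Hoxa5 and Hoxa7. The other detected Hox probes on these 2 arrays lay within the range of the brightest negative controls. At the level of genes, 10 of 38 Hox genes (26.3%) were detected on at least 1 array, against 77.4% of 19534 other genes. Hoxa7, Hoxa9 and Hoxb6, 7.89% of the 38 genes, were detected on all 6 arrays, against 67.8% of the other genes. The highest signal of these probes was 48.8 (Hoxa7, NPC2 B), and 0 of the 41 reached the 75th percentile of an array, which lay between 343 and 374. With the less strict flag of the software, for a positive signal that differs from background, 13 to 19 of the 41 probes per array passed.

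The 4 clusters differed in how many of their genes were detected. In the Hoxa cluster 5 of 10 genes were detected on at least 1 array, in the Hoxb cluster 3 of 10, in the Hoxd cluster 2 of 9 and in the Hoxc cluster 0 of 9. By paralogue group, the position shared between clusters, 3 of 11 genes of groups 1 to 4 (hindbrain and neck), 4 of 11 of groups 5 to 8 (trunk) and 3 of 16 of groups 9 to 13 (lower trunk, tail and limb) were detected. These are counts without a test, and a probe's own sensitivity enters each of them.

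The 28 genes detected on no array were Hoxa2, Hoxa3, Hoxa10, Hoxa11 and Hoxa13 of the Hoxa cluster, Hoxb1, Hoxb2, Hoxb4, Hoxb5, Hoxb7, Hoxb8 and Hoxb13 of the Hoxb cluster, all 9 Hoxc genes (Hoxc4, Hoxc5, Hoxc6, Hoxc8, Hoxc9, Hoxc10, Hoxc11, Hoxc12 and Hoxc13), and Hoxd3, Hoxd4, Hoxd8, Hoxd9, Hoxd10, Hoxd11 and Hoxd12. The 31 probes detected on no array had signals of 1.65 to 11.7, with a median of 2.32. Hoxc12 gave the values nearest to detection among them, 5.56 and 9.53 in EpiSC, 11.7 and 11.7 in NPC1 and 5.66 and 8.17 in NPC2, none of them marked. The probes of Hoxa11 and of Hoxb1, the latter a hindbrain gene that retinoic acid induces, are printed 10 times on each array. Their spots lay between 1.86 and 3.70 on all arrays apart from those marked as outliers, and those outliers reached 76.8 (Hoxa11, NPC1 B), 11.2 (Hoxa11, NPC2 A) and 47.3 (Hoxb1, EpiSC B). A single spot of these probes could thus read far above its 9 copies.

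**Figure D1:**
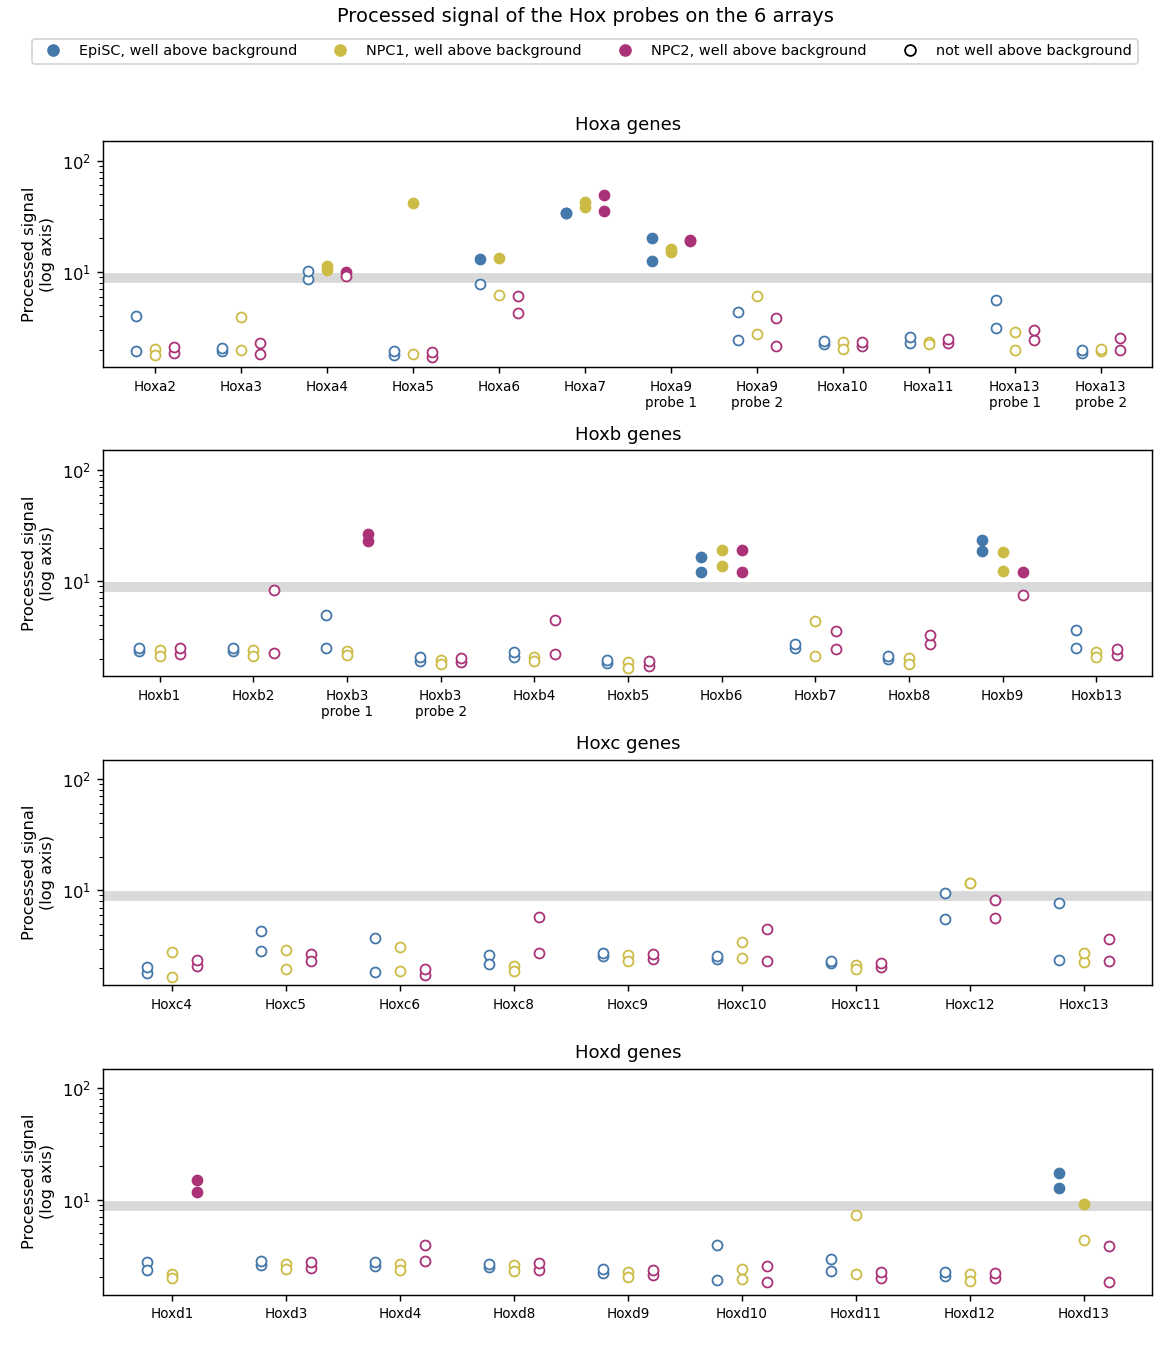
Processed signal (log axis) of 41 Hox probes on the 6 arrays, by cluster and in paralogue order, with filled circles for values well above background, open circles for the others and a colour per group. The grey band spans the lowest signals so marked on the arrays, 8.12 to 9.57. Most probes show open circles at values near 2.32, the Hoxc panel holds no filled circle, and the highest value is that of Hoxa7 in NPC2 B (48.8).

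Hoxa5 and Hoxa6, neighbouring trunk genes, were detected on some arrays but did not pass the filter of the test, which asks for detection on both arrays of a group. Hoxa5 read 1.80 and 1.94 in EpiSC, 1.83 and 42.0 in NPC1, and 1.71 and 1.92 in NPC2. It was detected in NPC1 culture B and in no other culture, in the 1 spot that the array holds for it. On that array 3 of the 308 negative control spots also read above 40. Of the other protein-coding probes 705, or 2.72%, were likewise detected on exactly 1 array. Hoxa6 read 12.95 and 7.76 in EpiSC, 13.5 and 6.17 in NPC1, and 4.27 and 6.12 in NPC2, and was detected in culture A of EpiSC and of NPC1.

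The remaining 8 genes entered the test. Hoxb3 and Hoxd1 did so through NPC2 alone, Hoxa4 through NPC1 alone and Hoxd13 through EpiSC alone. A gene that passes through 1 group was not detected on both arrays of any other, so its direction is partly set by the filter, and the counts below are descriptions. Values were log2 of the signal minus the array's 75th percentile, and the fit covered 14773 genes. The detected Hox genes were dim and correspondingly noisy. Their duplicates differed by a median of 0.35 on the log2 scale, against 0.0745 over all genes tested, and the standard error of a change was 0.111 to 0.495, against a median of 0.0678.

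Among the genes of the hindbrain and neck, Hoxb3 and Hoxd1 were detected on day 2 only. Hoxb3, a hindbrain gene, read 4.98 and 2.51 in EpiSC, 2.33 and 2.17 in NPC1, and 23.2 and 26.4 in NPC2. Hoxd1, at the hindbrain end of its cluster, read 2.73 and 2.31 in EpiSC, 2.12 and 1.96 in NPC1, and 11.7 and 14.98 in NPC2. For both genes the 2 NPC2 cultures stood above all other cultures, which the filter partly set. In either direction, NPC2 did not overlap EpiSC for 87% and NPC1 for 75.6% of all genes tested.

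Since neither gene was detected in the earlier groups, the size of the rise is known only as a bound. It sets the mean of the bright group against the lowest signal that counts as detected. Hoxb3 was at least 2.55-fold higher in NPC2 than in EpiSC (fitted log2 change 2.74 ± 0.33, adjusted p = 0.0014) and at least 2.74-fold higher than in NPC1 (3.39 ± 0.33, adjusted p = 0.00133). Hoxd1 was at least 1.37-fold higher than in EpiSC (2.34 ± 0.16, adjusted p = 0.000207) and at least 1.47-fold higher than in NPC1 (2.63 ± 0.16, adjusted p = 0.00033). Normexp correction, another way to correct for background, was run with 50 added to each signal, above the highest Hox signal of 48.8. Log2 changes of dim probes are therefore smaller under it by construction, here and below. It kept all 4 calls and gave changes of 0.25 and 0.39 for Hoxb3 and of 0.18 and 0.27 for Hoxd1. A second Hoxb3 probe read 1.78 to 2.09 and was detected on no array. A fit without a culture leaves its group 1 array, which is assumed to vary like the arrays of the other groups. In NPC1 against EpiSC, Hoxb3 (-0.65, adjusted p = 0.167) and Hoxd1 (-0.29, adjusted p = 0.194) did not pass. Without EpiSC replicate B the Hoxb3 difference passed (-1.14), with the gene detected in neither group.

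Hoxa4, a gene of the neck region, stayed at the edge of detection. It read 8.73 and 10.3 in EpiSC, 11.2 and 10.4 in NPC1, and 10.03 and 9.19 in NPC2, and was marked as detected on both NPC1 arrays and on NPC2 A. Relative to EpiSC its changes were 0.20 on day 1 and -0.04 on day 2, and from day 1 to day 2 it was -0.24, with adjusted p of 0.193, 0.751 and 0.136.

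The trunk genes Hoxa7 and Hoxb6 were detected on every array and did not pass the test in any comparison. Hoxa7 read 34.1 and 34.2 in EpiSC, 42.2 and 38.7 in NPC1, and 35.1 and 48.8 in NPC2. The 2 NPC1 cultures stood above EpiSC, where 77.7% of all genes tested did not overlap in either direction. After scaling NPC2 overlapped both groups. Its changes were 0.25 on day 1 (adjusted p = 0.287) and -0.04 from day 1 to day 2 (adjusted p = 0.875). Its 95% interval for NPC2 against EpiSC ran from -0.24 to 0.67 on the log2 scale around 0.21 (adjusted p = 0.327), and the change passed without NPC2 replicate A (0.46, adjusted p = 0.0283). Hoxb6 read 12.0 and 16.4 in EpiSC, 18.9 and 13.8 in NPC1, and 12.0 and 19.0 in NPC2, with overlap of all groups. Its interval for NPC2 against EpiSC was -0.77 to 0.85 around 0.04 (adjusted p = 0.914), and it changed by 0.21 on day 1 (adjusted p = 0.605) and by -0.17 from day 1 to day 2 (adjusted p = 0.688).

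The lower trunk and tail genes Hoxb9 and Hoxd13 were lower on day 2 than in EpiSC, and Hoxa9 was not called. Hoxb9 read 18.6 and 23.5 in EpiSC, 12.4 and 18.3 in NPC1, and 12.0 and 7.54 in NPC2, where culture B was not detected. The 3 groups lay in descending order without overlap. Separated groups were common over all genes tested. In either direction, 77.7% did not overlap in NPC1 against EpiSC, 87% in NPC2 against EpiSC and 75.6% in NPC2 against NPC1. Hoxb9 fell 2.30-fold in the means by day 2, to signals near background (log2 change -1.20 ± 0.28, adjusted p = 0.0148). This call was lost without EpiSC replicate B (-1.04, adjusted p = 0.0688), and normexp correction gave a smaller change of -0.27. The intermediate steps of -0.47 (NPC1 against EpiSC, adjusted p = 0.227) and -0.73 (NPC2 against NPC1, adjusted p = 0.0906) did not pass, but the latter passed without NPC2 replicate A (-1.06, adjusted p = 0.046).

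Hoxd13, which patterns digits and the genital region at the tail end of the series, read 12.6 and 17.2 in EpiSC, 4.36 and 9.17 in NPC1, and 1.81 and 3.84 in NPC2. It was detected in both EpiSC cultures, in NPC1 B and in neither NPC2 culture. The groups again lay in descending order without overlap, to be read against the same shares over all genes. Hoxd13 was at least 1.71-fold lower in NPC2 than in EpiSC (fitted log2 change -2.55 ± 0.50, adjusted p = 0.00757), and normexp correction gave -0.40. The steps to day 1 (-1.21 ± 0.50, adjusted p = 0.1001) and from day 1 to day 2 (-1.34 ± 0.50, adjusted p = 0.0822) did not pass, and with normexp correction both passed (-0.19, adjusted p = 0.0217, and -0.22, adjusted p = 0.0111).

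Hoxa9 read 12.7 and 20.3 in EpiSC, 15.1 and 16.0 in NPC1, and 19.0 and 19.5 in NPC2. The 2 EpiSC cultures enclosed all other values. Relative to EpiSC the changes were -0.04 on day 1 and 0.20 on day 2, and between the days 0.24, with adjusted p of 0.897, 0.46 and 0.423. The direction depended on the EpiSC culture, since without one of them EpiSC is 1 array and the gap between its duplicates no longer enters the error. In NPC1 against EpiSC it was called lower without EpiSC replicate A (-0.38, adjusted p = 0.0219) and higher without EpiSC replicate B (0.30, adjusted p = 0.0372). In NPC2 against EpiSC it was called higher without EpiSC replicate B (0.54, adjusted p = 0.00471). In NPC2 against NPC1 it passed with EpiSC replicate A or EpiSC replicate B left out (adjusted p = 0.0326 in both), the change itself being 0.24 as before. A second Hoxa9 probe read 2.18 to 6.08 and was detected on no array.

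**Figure D2:**
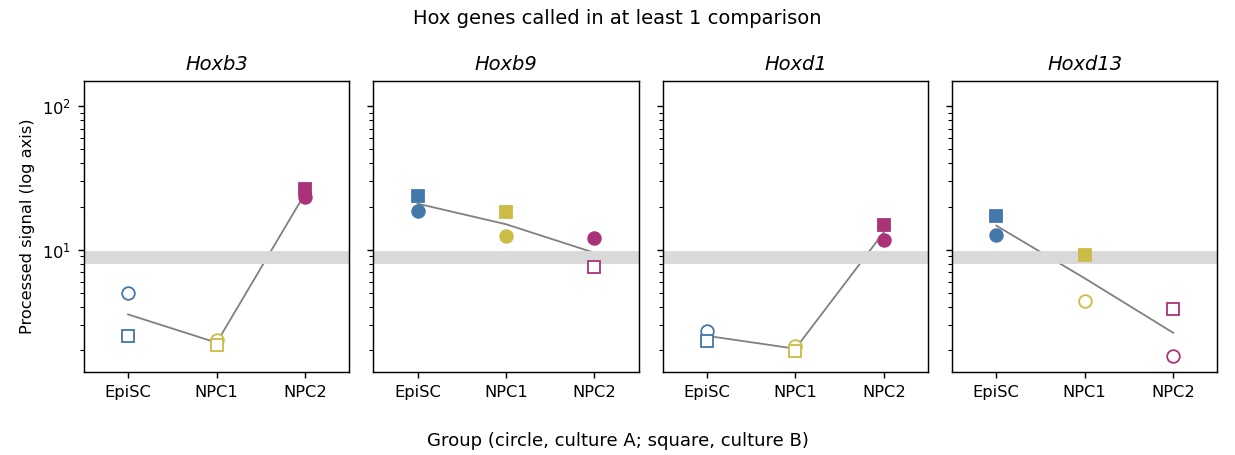
Processed signal (log axis) of the 4 Hox genes Hoxb3, Hoxb9, Hoxd1 and Hoxd13, each called in at least 1 comparison, by group, with a circle for culture A, a square for culture B, filled where well above background, and a line through the group means of the log signal. Hoxb9 and Hoxd13 are highest in EpiSC, while Hoxb3 and Hoxd1 lie below the grey band of detection limits until NPC2.

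Counted by comparison, the calls among the 8 tested Hox genes all involved NPC2. In NPC1 against EpiSC 0 of the 8 were called by limma (0 at an unadjusted p under 0.05), against 50.3% of all genes tested (21.3% higher and 29% lower). In NPC2 against EpiSC 4 of 8 were called, 2 higher (Hoxb3 and Hoxd1) and 2 lower (Hoxb9 and Hoxd13), against 69% of all genes (28.3% higher and 40.7% lower). In NPC2 against NPC1 2 of 8 were called, both higher (Hoxb3 and Hoxd1), against 47.5% of all genes (20.8% higher and 26.6% lower). The shares of these Hox genes called were 0%, 50% and 25%, each below the share over all genes, a difference that was not tested. With the larger standard errors given above, a Hox gene needed a larger change to pass than a typical gene. The 2 later comparisons share the NPC2 arrays, and both comparisons with EpiSC share the EpiSC arrays.

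With no filter on dim probes, all 38 Hox genes were tested among 20274 genes. The counts were 0 (0 at an unadjusted p under 0.05), 4 and 2, against 29.8%, 46.8% and 28.9% of all genes, and the genes called were those named above. In the fit over 33536 probes 0 (0 at an unadjusted p under 0.05), 4 and 2 of 8 Hox probes were called, against 33.3%, 54.5% and 31.8% of all probes. The 4 probe calls in NPC2 against EpiSC became 3 with no filter, 3 without NPC2 replicate B, and 3 without EpiSC replicate B, where 3 were higher and 0 lower, so that the probe calls of Hoxb9 and Hoxd13 were lost. The median change of the 8 Hox genes was -0.16, 0.12 and -0.10 in the 3 comparisons, against -0.05, -0.10 and -0.04 over all genes. The balance of all calls depends on the scaling between arrays. In NPC1 against EpiSC 3143 genes were higher and 4291 lower, against 4442 and 2708 in the authors' value table and 2358 and 5783 when each array's median was subtracted. The value table turned the balance in NPC2 against EpiSC from 4182 higher and 6014 lower to 6157 and 3899, and in NPC2 against NPC1 from 3078 and 3935 to 4187 and 2911. The directions of the called Hox changes held under every scaling run.

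**Figure D3:**
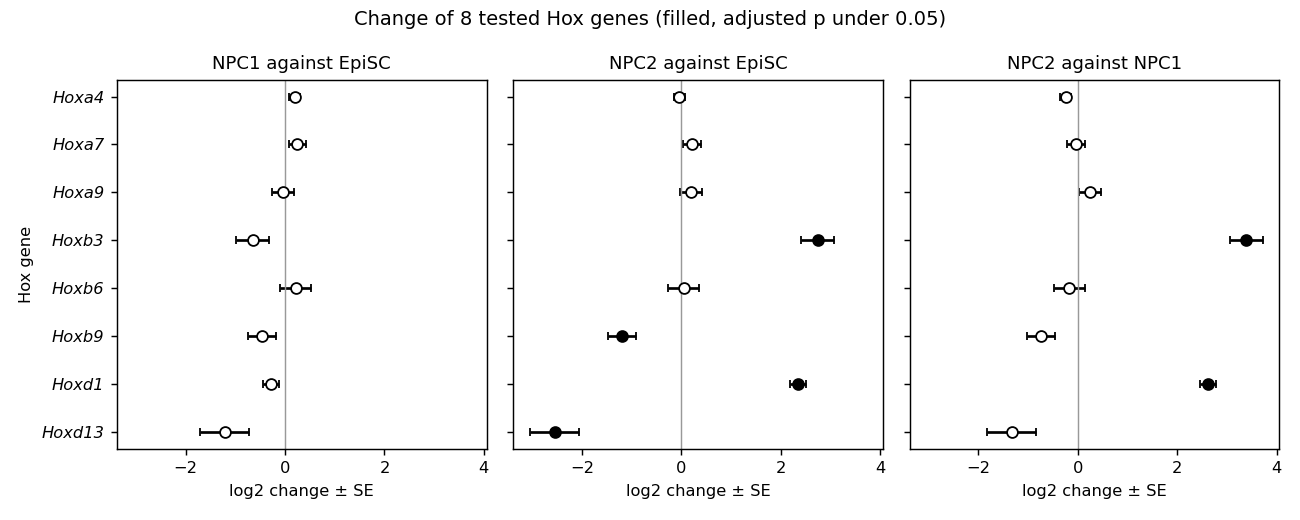
Fitted log2 change with its standard error for 8 tested Hox genes in the 3 comparisons, filled where the adjusted p was under 0.05. Hoxb9 and Hoxd13 are filled on the lower side in NPC2 against EpiSC, and Hoxb3 and Hoxd1 on the higher side in both comparisons of NPC2.

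Markers of other cell types moved between the same groups, and their part in the Hox changes was not tested. In bulk RNA, fewer cells of a type and less RNA per cell cannot be told apart. The counts of these and the following lists are to be read against the 50.3% of all genes called in NPC1 and the 69% called in NPC2, both against EpiSC. Of 16 tested fibroblast and feeder markers 8 were higher and 5 lower in NPC2 (81.2% called). The higher ones included Prrx1, a mesenchymal homeobox gene, Pdgfra (at least 11.5-fold), Acta2 (6.01-fold) and Postn (at least 1.88-fold). Prrx1 read 1.89 and 4.05 in EpiSC, 2.48 and 9.84 in NPC1, and 46.6 and 49.99 in NPC2. Prrx1, Pdgfra and Postn passed the filter through NPC2 alone. Of the lower ones, S100a4 fell from 229.3 and 268.9 in EpiSC to 27.9 and 27.8 in NPC2 (9.32-fold). The summed signal of the 16 markers was 37730 to 39980 in EpiSC, 53750 to 56080 in NPC1 and 34820 to 35570 in NPC2. Tagln, named for its share of this sum, read 18810 and 20310, 40050 and 42020, and 18420 and 18130 in these groups. The higher sum in NPC1 thus follows this gene. Fap and Lum were detected on no array. Of 11 neural crest and surface ectoderm markers 5 were higher and 3 lower in NPC2 (72.7% called). Msx1 had a log2 change of 3.55 and Tfap2a of 1.84. Foxd3, of the same list, fell from 870.2 and 842.1 in EpiSC to 44.4 and 61.9 in NPC2. The sum of the 11 was 62950 to 66240 in EpiSC, 51190 to 51760 in NPC1 and 22130 to 23840 in NPC2. Most of it came from the keratin genes Krt18 (50320 and 53610 in EpiSC, 17450 and 15850 in NPC2), named for this share, and Krt8 (9483 and 9612, 2690 and 2561). Tfap2b was detected on no array.

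On the falling side, 7 of 11 streak and mesoderm markers were lower in NPC2 than in EpiSC and 1 was higher, with sums of 8801 to 9059 in EpiSC, 4942 to 4956 in NPC1 and 4338 to 4916 in NPC2. Foxf1, Meox1 and Msgn1 were detected on no array. Of 5 endoderm markers 4 were lower and 1, Cxcr4, was higher (sums of 2169 to 2253, 150.9 to 199.2 and 929.5 to 990.7), with Hnf4a and Ttr not detected. Of 6 extraembryonic markers 5 were lower (3549 to 3578, 2302 to 2533 and 1290 in both NPC2 cultures), with Cdx2 not detected. In NPC1, 7 of 11 streak and mesoderm, 4 of 5 endoderm and 5 of 6 extraembryonic markers were lower and 0 of each were higher. Among these lists, Mixl1, Hand1, Afp and Plac1 were detected in EpiSC alone. They passed the filter through that group, which partly set their fall.

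The partner genes of Hox proteins were all detected. Of the 9 TALE genes 5 were higher and 0 lower in NPC1 than in EpiSC, and 6 were higher and 1 lower in NPC2 (median log2 change 0.31 and 0.88). The shares called, 55.6% and 77.8%, were near the 50.3% and 69% over all genes. Meis2 read 12.98 and 6.57 in EpiSC, 102.1 and 115.1 in NPC1, and 736.7 and 747.8 in NPC2, a rise of 76.9-fold in the means by day 2, with EpiSC B not detected and the fold resting on signals near background (log2 change 6.27 ± 0.32, adjusted p = 8.27e-05). Pknox2 rose 46.7-fold (5.55 ± 0.22). Meis1 did not pass on day 1 (-0.31, adjusted p = 0.0752) and was 6.19-fold higher on day 2 (2.63 ± 0.11), the day on which Hoxb3 and Hoxd1 were detected. Pbx3 was higher (0.91) and Pknox1 lower (-1.29) on day 2.

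Genes that act upstream of the Hox clusters or mark the posterior axis were called in both directions. Of 17 such genes Cdx2, Msgn1 and Wnt3a were detected on no array, and of 13 tested 6 were higher and 3 lower in NPC1, and 9 higher and 3 lower in NPC2 (median 2.72). The shares called were 69.2% and 92.3%, against 50.3% and 69% over all genes. Cdx1, named for its role beside Cdx2, was detected on every array. It read 21.2 and 17.3 in EpiSC, 13.3 and 76.6 in NPC1, and 18.2 and 12.2 in NPC2. Irx3, whose homeodomain product acts in neural plate caudal to the forebrain, rose 57.7-fold by day 2, and the nuclear receptor genes Nr2f1 and Nr2f2 83.7-fold and 32.9-fold. Nr2f2 read 14.1 and 9.59 in EpiSC, the second not detected, so its fold rests on signals near background. T, which encodes brachyury, fell 23.3-fold (-4.54 ± 0.061). Sp5, a Wnt target, was lower on day 1 (-2.23 ± 0.27) and higher on day 2 (3.28 ± 0.27). Its rise from day 1 to day 2 was 45.5-fold.

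Of 15 tested genes of retinoic acid synthesis, breakdown and reception, 3 were higher and 6 lower in NPC1 (60% called) and 7 higher and 5 lower in NPC2 (80% called). Crabp2, which encodes a retinoic acid carrier, rose 22.5-fold by day 2, Crabp1 5.41-fold, and Stra6, the retinol uptake receptor gene, at least 14.9-fold. Aldh1a2, the main embryonic enzyme of retinoic acid synthesis, fell by day 1 (-0.94 ± 0.069) and was 1.39-fold above EpiSC on day 2 (0.48 ± 0.069). Aldh1a3, another synthesis gene, read 18.0 and 18.9 in EpiSC, 4.58 and 6.57 in NPC1, and 3.49 and 9.98 in NPC2. It was not detected in NPC1 or in NPC2 A, and it passed the filter through EpiSC alone. It was called lower in both (-1.74 and -1.71). These calls were lost in the value table (adjusted p = 0.0529 and 0.0507 by limma) and with no filter on dim probes (0.0828 and 0.0641). They were also lost without EpiSC replicate A (-1.78 and -1.74) or B (-1.71 and -1.675), and without NPC1 replicate A or B. The list's median (-0.07 in NPC1 and -0.13 in NPC2) changed sign with the scaling.

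All 11 tested genes of the anterior neural plate, the territory without Hox expression in the embryo, were higher in NPC2 than in EpiSC. Their median change was 2.94, and in NPC1 6 were higher and 0 lower. Fezf2, and Six3, Pax6 and Otx1, named for their detection, were detected on the NPC2 arrays alone. These genes passed the filter through NPC2, so their rise was partly set by it. The count and the median rest partly on them. Hesx1, needed for forebrain formation, rose 19.0-fold (4.25 ± 0.13), and Lhx2 9.45-fold. Dmbx1 was detected on 1 of 2 EpiSC arrays, with 7.36 on the other, and read 1915 and 2176 in NPC2, so the fold of its means, 226.4, rests on signals near background. Lhx5 rose at least 73.3-fold and Fezf2 at least 5.57-fold.

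Among other homeobox genes near or related to the clusters, 8 of the 11 on the array were detected on no array (Dlx1, Dlx2, Evx2, Gsx1, Gsx2, Meox1, Meox2 and Pdx1). Evx1, which lies beside the tail end of the Hoxa cluster, read 11.6 and 15.3 in EpiSC, 4.12 and 2.02 in NPC1, and 73.6 and 96.2 in NPC2. It was at least 1.54-fold lower on day 1, a call lost without EpiSC replicate B (-2.0, adjusted p = 0.0522), and 6.05-fold above EpiSC on day 2 (2.60 ± 0.40, adjusted p = 0.00335). The neighbouring Hoxa13 and Hoxa11 were detected on no array. Dlx4 (-1.10) and Dlx3 (-0.31) were lower on day 2, the latter not in the value table (-0.08, adjusted p = 0.284).

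The genes that flank the clusters were broadly active: all 19 on the array were detected. Of these 4 were higher and 4 lower in NPC1, and 5 higher and 10 lower in NPC2 (median -0.23, against -0.10 over all genes). The shares called were 42.1% and 78.9%, against 50.3% and 69% over all genes. Copz2, near the Hoxb cluster, rose 3.64-fold and Nfe2l2, near the Hoxd cluster, fell 2.62-fold by day 2. The non-coding transcripts on the array were Hoxa11os, detected on all 6 arrays at 13.5 to 21.6, and Hoxd3os1, detected on none. Hoxa11os was called lower in NPC2 than in NPC1 (-0.53 ± 0.14, adjusted p = 0.0291), and the call was lost under 9 alternatives, among them the value table (adjusted p = 0.0593) and without NPC1 replicate A (adjusted p = 0.116), NPC1 replicate B (0.0505) or NPC2 replicate A (0.0892).

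Subunits of the Polycomb and Trithorax complexes, which respectively silence Hox genes and keep them active, were called at shares close to those over all genes. Of 29 tested 7 were higher and 8 lower in NPC1, and 9 higher and 13 lower in NPC2 (51.7% and 75.9% called, against 50.3% and 69% over all genes), and the median (-0.11 in NPC2) changed sign with the scaling. Among Polycomb genes Cbx8 was at least 4.37-fold higher on day 2, Bmi1 was 3.37-fold and Cbx2 2.63-fold higher, and Phc1 was 2.42-fold and Phf19 2.37-fold lower. Ezh2, which encodes the methyltransferase of the complex and was named for that role, changed by 0.34 ± 0.052 (adjusted p = 0.00303).

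**Figure D4:**
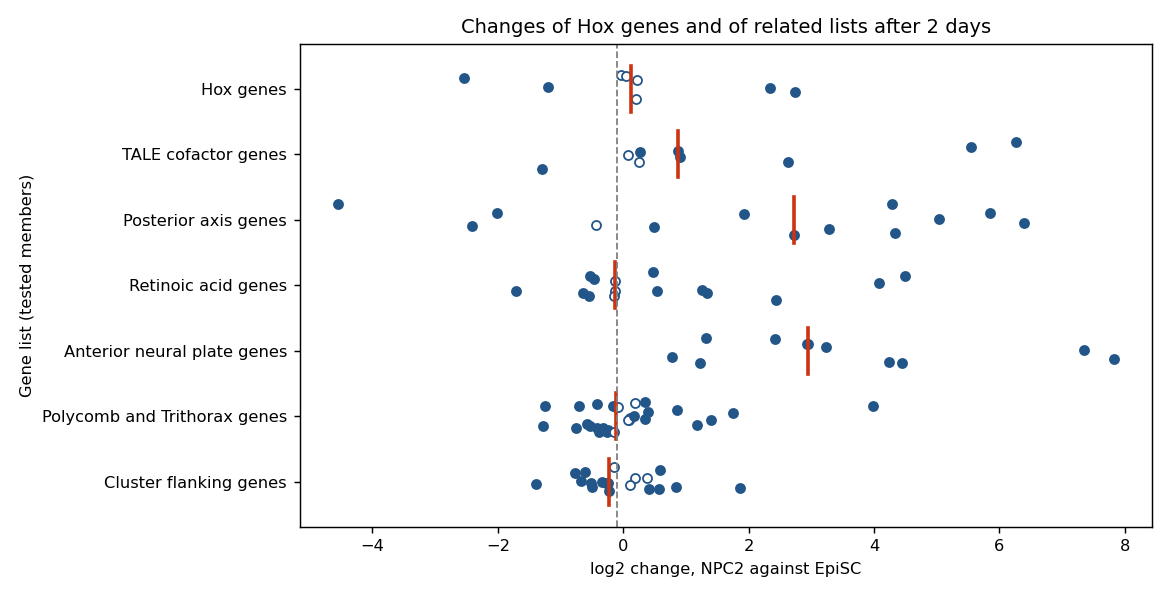
Fitted log2 change in NPC2 against EpiSC of the tested genes of 7 lists, filled where the adjusted p was under 0.05, with the list median as a red bar and the median of all genes tested as a dashed line (-0.10). The Hox genes spread to both sides, while all anterior neural plate genes lie to the right with a median of 2.94. In both lists some genes passed the filter through NPC2 alone, which partly sets their side.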

How the data were processed

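The 6 RNA samples were hybridised to 1-colour Agilent arrays (design 028005). Per the file headers, Agilent Feature Extraction 10.10.1.1 (protocol GE1_1010_Sep10) gave each spot a processed intensity, background-subtracted, with flags for background, saturation and outliers. The value table that the authors deposited is this intensity multiplied, per array, by a constant of 2.10 to 2.41. Its origin is not given in the labels or headers. Its array medians were 52.5 and 51.3 (EpiSC), 61.8 and 59.6 (NPC1) and 65.3 and 64.3 (NPC2). The table is linear and uncentred.

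From the intensities, spots of a probe were averaged after control and outlier spots were left out (35 probes had no other spot, 0 of them Hox). Of 28372 probes with a RefSeq accession 26744 were named through the reference table (GRCm38.p6). The 75th percentile of each array was subtracted after log2. A gene was its brightest probe among those well above background on both arrays of a group (33536 probes, 14773 genes). Groups were compared with R 4.3.3 and limma 3.58.1 (two-sided lmFit with eBayes, all 6 arrays, 3 residual and 1.88 prior degrees of freedom), with Benjamini-Hochberg adjustment over all genes at 0.05. The fit was tested on simulated data. Errors are standard errors, and n = 2 arrays per group throughout, which limits the precision. For a bound, the dim group was given on each array the lowest detected signal of that array, or the probe's own where higher, and compared with the mean of the bright group.

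The values of a few genes are not reported here, and these genes stay in the fits over all genes and out of the counts of Hox genes and lists. Named were the 8 tested Hox genes, the signals of those called or detected on every array, and up to 5 called members with the largest change per list; further genes are marked as chosen later or named for a role. The members and lists were chosen with earlier results of these data known. The alternatives changed background correction, scaling, value source, filter, probe rule and block, and left out each culture in turn. The normexp correction (offset 50) used the median signal, since the files hold no mean signal.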

Additional observations from a re-analysis of the deposited data

How the results depend on the processing

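In the fit over genes, the calls of Hoxb3, Hoxd1 and Hoxd13 held under every alternative that tested them, while in the fit over probes that of Hoxd13 was lost without EpiSC replicate B. A group with a culture left out is 1 array, assumed to vary like the others. Hox gene and Hox probe counts in NPC1 against EpiSC were 1 with normexp correction (Hoxd13), 0 to 2 genes and 0 to 1 probes with a culture left out, and 1 with the replicate block, again Hoxd13 (adjusted p = 0.0125). The block also brought Hoxd13 past the threshold in NPC2 against NPC1 (adjusted p = 0.00968). Differences between A and B correlated at 0.00813, 0.00623 and -0.045 between groups over all genes tested. No shift shared by the letters was thus seen over all genes, but this cannot show whether the cultures were paired. For Hoxd13, culture A lay below culture B in each group. With detection required on all 6 arrays, 3 Hox genes were tested, Hoxa7, Hoxa9 and Hoxb6, which were not called in the main fit. Of these 0 were called in NPC2 against EpiSC and 0 in NPC2 against NPC1 by limma (0 at an unadjusted p under 0.05 in both). Over all genes 9628 and 6799 of 13553 were called. This filter left out Hoxb3, Hoxb9, Hoxd1 and Hoxd13, so the 0 does not test their calls. The count of all genes called in NPC1 against EpiSC was 4880 to 6720 with a culture left out. With the less strict flag 19, 17, 13, 17, 19 and 19 Hox probes passed on EpiSC A and B, NPC1 A and B and NPC2 A and B.

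Uncalled changes turned sign. Normexp gave 0.000168 (Hoxa4), -0.0532 (Hoxa9) and -0.0103 (Hoxb6) in NPC2 against EpiSC and -0.041 (Hoxa9) in NPC2 against NPC1. Hoxb6 in NPC2 against EpiSC was -0.0418 after median scaling and -0.0292 after quantile normalization. The value table gave 0.0867 (Hoxa9, NPC1 against EpiSC), 0.18 (Hoxa4, NPC2 against EpiSC) and 0.062 (Hoxa7, NPC2 against NPC1). With a culture left out, the ranges were -0.38 to 0.30 (Hoxa9) and -0.0596 to 0.48 (Hoxb6) in NPC1 against EpiSC, -0.16 to 0.0707 (Hoxa4), -0.0317 to 0.46 (Hoxa7), -0.14 to 0.54 (Hoxa9) and -0.30 to 0.38 (Hoxb6) in NPC2 against EpiSC, and -0.28 to 0.21 (Hoxa7) and -0.51 to 0.17 (Hoxb6) in NPC2 against NPC1. The cause of these changes was not tested. Signals near background limit all Hox values, since a change among undetected probes could not be measured. Median scaling moved the median of all genes to -0.15 and -0.18 and the value table to 0.07 and 0.13 in the comparisons of NPC1 and NPC2 with EpiSC.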
